A study of Mus musculus with 4 samples.

Results

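Trp63, Trp73, Perp, Trim29, Tfap2a and Tfap2c are 6 genes tied to the basal layer of stratified and ductal epithelia, and their RNA was followed in primary mouse mammary tumors of 2 genotypes. The genes were chosen by name with the genotype values of these same tumors already known, so their levels by genotype are given as a description and carry no test. All 6 were found among 23746 gene rows, and all 6 were among the 12752 rows that reached 1 FPKM in 2 or more tumors. FPKM, fragments per kilobase of transcript scaled to the total of mapped fragments, corrects for transcript length, so levels can be set side by side between genes. Trp73 and Trim29 reached 1 FPKM in the triple-mutant tumors alone, so that filter kept them through the genotype in which they were high.

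Trp63 and Trp73 encode p63 and p73, the relatives of the tumor suppressor p53, and p63 is the factor that maintains the basal cells of skin, mammary gland and other layered epithelia. Each gene is read from an upstream start, which gives the transactivating TA forms, and from a downstream start, which gives the ΔN forms. For p63, the ΔN forms prevail in basal cells. Perp encodes a membrane protein of desmosomes and a target of p53 and p63, Trim29 encodes a tripartite-motif protein of basal epithelial cells, and Tfap2a and Tfap2c encode the transcription factors AP-2α and AP-2γ, which act with p63 in the epidermis and which also operate in the mammary epithelium.

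PolyA RNA came from the female tumors 26043 and 26044, labelled WapCre;Rank;Brca1;p53 and called triple-mutant, and from the female tumors 26048 and 26050, labelled WapCre;Brca1;p53 and called double-mutant. All 4 carried the WapCreC transgene, in which the promoter of the milk protein gene Wap drives Cre recombinase in luminal and basal mammary epithelial cells, and floxed Brca1 and p53. The triple-mutant tumors carried floxed Rank (Tnfrsf11a) in addition, so the genotypes differ by the loss of this receptor from cells with Cre activity, while other cells of the tumor keep their alleles. The study describes the females of the genotypes as littermates, without saying which tumors pair. Ages, tumor grades and strain background of these 4 tumors were not given in the labels, nor whether each tumor came from its own animal. In the study, high-grade tumors arose in double-mutant but not in triple-mutant females, and p63 protein was largely lost in them. Genotype and grade therefore cannot be told apart in these 4 tumors. Whole tumors were sequenced, so fewer cells of a type and less RNA per cell cannot be told apart.

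Rank itself was at 2.07 and 0.962 FPKM in the triple-mutant and at 10.6 and 11.9 FPKM in the double-mutant tumors, in the direction of the labels. The luminal markers Krt8, Krt18 and Epcam were present in all 4 tumors, at no less than 25.7 FPKM for any of them. Between 12150 and 12681 rows per tumor reached 1 FPKM. The number of reads behind a tumor is not recorded in FPKM. The interval that Cufflinks, the program that estimated the values, attached to each of them is given as a limited guide to precision. Of 23746 rows, 6502 in 26043, 6827 in 26044, 5668 in 26048 and 5859 in 26050 lay outside their own interval. Differences between genotypes are on the log2(FPKM + 1) scale, triple-mutant minus double-mutant, and a gene is said not to overlap where both tumors of a genotype lay above both of the other. The limma fit over the 12752 genes called 0 of them (0%) at a Benjamini-Hochberg adjusted p under 0.05, while 1252 genes had an unadjusted p under 0.05. An exact permutation test of a single gene in 2 against 2 tumors cannot go below p = 0.333.

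The RefSeq promoter tables held 4 entries for 2 of the 6 genes, Trp73 and Tfap2a, and Trp73 is shown because both of its starts, those of the TA and the ΔN forms, had an entry. The sequences are the 250 bases before each RefSeq start on the minus strand of chromosome 4 (GRCm38.p6, whose chromosomes are those of mm10), with capitals for the AP-2 site GCCNNNGGC, which reads the same on both strands.
Trp73 upstream start, chr4:154139876-154140125: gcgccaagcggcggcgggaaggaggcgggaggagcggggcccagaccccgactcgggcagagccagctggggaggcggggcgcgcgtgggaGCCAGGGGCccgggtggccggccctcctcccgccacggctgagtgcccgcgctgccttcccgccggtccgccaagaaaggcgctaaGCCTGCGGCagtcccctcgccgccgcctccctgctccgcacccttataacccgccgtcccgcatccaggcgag
Trp73 downstream start, chr4:154097174-154097423: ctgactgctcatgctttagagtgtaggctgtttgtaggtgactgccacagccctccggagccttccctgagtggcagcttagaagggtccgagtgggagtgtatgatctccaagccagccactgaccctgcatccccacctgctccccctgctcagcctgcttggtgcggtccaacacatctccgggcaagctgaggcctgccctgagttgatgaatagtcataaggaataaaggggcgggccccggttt
The upstream window lies within the locus that the deposited tables give for Trp73, which ends at 154140208, beyond the RefSeq start at 154139875. The upstream window had 77.2% G and C and held 2 AP-2 sites, GCCAGGGGC from -159 to -151 and GCCTGCGGC from -73 to -65, counted back from the start. The downstream window had 58.4% G and C and held no match. Among 32851 promoter windows of the same length, 13.7% held an AP-2 site and the median content of G and C was 52.4%. The p53-family consensus decamer, searched by that name, was absent from both Trp73 windows and present in 7.1% of all windows, and a match is a description of letters, not evidence of binding. The windows of Tfap2a held neither motif.

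Of the 6 genes, 4 were higher in both triple-mutant than in both double-mutant tumors (Trp63, Trp73, Perp and Trim29) and 2 overlapped between genotypes (Tfap2a and Tfap2c). Over all tested genes, both triple-mutant tumors lay higher without overlap in 21.3%, lower in 22.9% and either in 44.3%, and nothing is read from the comparison since the genes were picked on this contrast. All 6 genes were at 1 FPKM or more in both triple-mutant tumors, and 3 of them (Perp, Tfap2a and Tfap2c) in both double-mutant tumors.

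**Figure D1:**
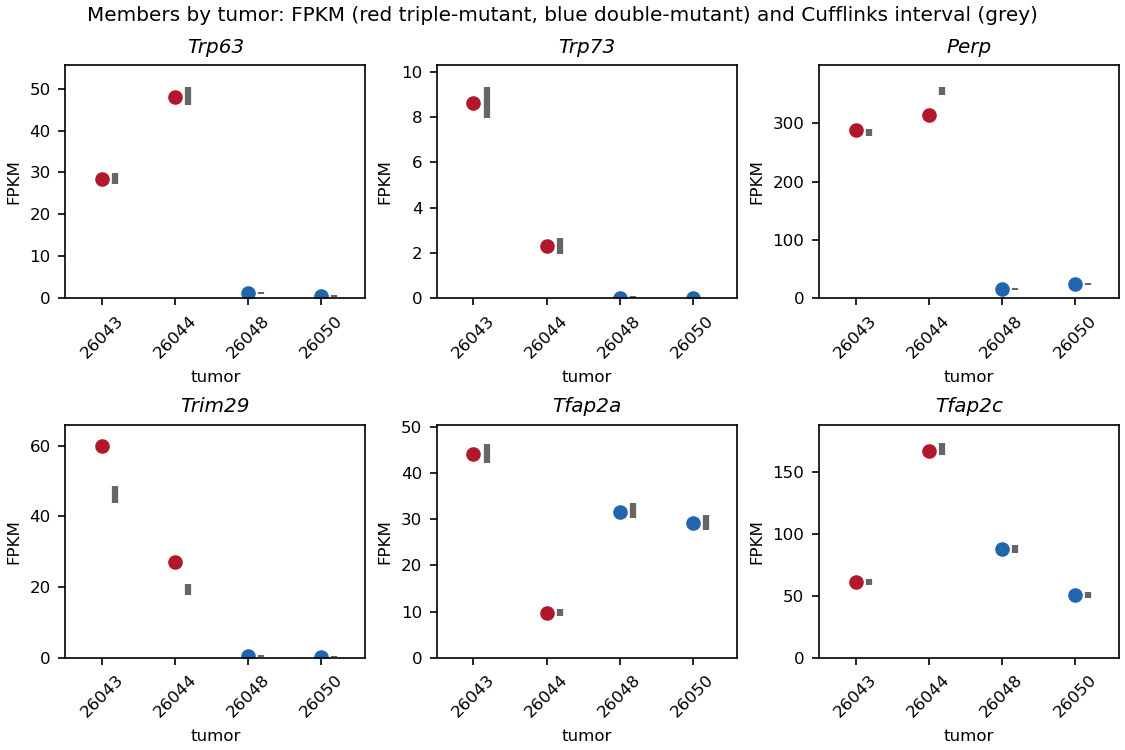
FPKM of the 6 genes in each of the 4 tumors (vertical axis, linear from 0, scaled per gene), with triple-mutant tumors in red, double-mutant tumors in blue and the Cufflinks interval of each value as a grey bar to its right. Trp63, Trp73, Perp and Trim29 separate the genotypes, Tfap2a and Tfap2c do not, and the values of Perp in tumor 26044 and of Trim29 in 26043 and 26044 lie outside their own bars.

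Trp63 (chromosome 16 from 25683765 to 25892088 on mm10, 2 annotated starts) was at 28.5 FPKM in tumor 26043 (Cufflinks interval 27.2 to 30.0) and at 48.1 FPKM in 26044 (46.1 to 50.4). In the double-mutant tumors it was at 1.24 FPKM in 26048 (0.988 to 1.5) and at 0.670 FPKM in 26050 (0.433 to 0.910). The genotypes were thus far apart, and the lower triple-mutant tumor stood 22.9-fold above the higher double-mutant tumor. The mean was 38.3 ± 13.9 FPKM (SD, n = 2) against 0.957 ± 0.405 FPKM (SD, n = 2), a log2 difference of 4.30 that ranked 21 among the 12752 differences from the highest down. In rank within each tumor, Trp63 lay above 72.5% and 84.7% of tested genes in 26043 and 26044 and above 6.3% and 3.9% of them in 26048 and 26050. The tables give 1 value per gene, with both starts added together, so TA and ΔN transcripts cannot be told apart.

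Trp73 (chromosome 4 from 154056249 to 154140208) was at 8.64 FPKM in tumor 26043 (interval 7.95 to 9.33) and at 2.31 FPKM in 26044 (1.98 to 2.65). It was at 0.0390 FPKM in 26048 (0 to 0.0999) and listed at 0 in 26050, so no fold is given. The mean was 5.48 ± 4.47 FPKM (SD, n = 2) against 0.0195 ± 0.0276 FPKM (SD, n = 2), a log2 difference of 2.47. Both p53 relatives were therefore detected in the triple-mutant tumors, yet in opposite order. Trp73 was higher in 26043 than in 26044 by 1.54 log2 units and Trp63 was lower there by 0.74, and the ratio of Trp63 to Trp73 was 3.30 in 26043 and 20.8 in 26044. Trp63 exceeded Trp73 in each of the 4 tumors.

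Perp (chromosome 10 from 18845071 to 18857072) was the most abundant of the 6 genes in both triple-mutant tumors, at 288 FPKM in 26043 (interval 278 to 291) and 315 FPKM in 26044, where the interval of 348 to 363 did not contain the value. It was at 16.3 FPKM in 26048 (14.7 to 17.9) and at 25.4 FPKM in 26050 (23.6 to 27.1), so that unlike Trp63, Trp73 and Trim29 it was plainly present in every tumor. The triple-mutant tumors differed from each other by 0.13 log2 units, the closest agreement of that pair among the 6 genes, and the genotypes did not overlap. The mean was 302 ± 19.0 FPKM (SD, n = 2) against 20.8 ± 6.39 FPKM (SD, n = 2), 14.5-fold higher and a log2 difference of 3.82. Perp stood 10.1-fold and 6.55-fold above Trp63 in the triple-mutant tumors 26043 and 26044 and 13.1-fold and 37.8-fold above it in the double-mutant tumors 26048 and 26050.

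Trim29 (chromosome 9 from 43310763 to 43336125) had the highest log2 difference of the 6 genes, 4.90, rank 13 of all tested genes. Its FPKM was 59.9 in tumor 26043 and 27.0 in 26044 against 0.464 in 26048 (interval 0.252 to 0.623) and 0.309 in 26050 (0.140 to 0.444). The intervals of the triple-mutant tumors, 43.8 to 48.5 and 17.9 to 20.8 FPKM, lay below the values they belong to, and with interval midpoints in place of the FPKM the log2 difference was 4.51. Either way the triple-mutant tumors stood clear of the double-mutant tumors, with means of 43.5 ± 23.3 FPKM (SD, n = 2) and 0.387 ± 0.109 FPKM (SD, n = 2). Trim29 was 1.12 log2 units higher in 26043 than in 26044, as Trp73 was and Trp63 was not, and its ratio to Trp63 was 2.1 in 26043 and 0.562 in 26044.

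Tfap2a (chromosome 13 from 40715675 to 40733823), which encodes AP-2α, was at 44.1 FPKM in tumor 26043 (interval 42.3 to 46.3) and 9.69 FPKM in 26044 (8.93 to 10.4), and at 31.7 FPKM in 26048 (30.3 to 33.5) and 29.3 FPKM in 26050 (27.8 to 30.9). Both double-mutant tumors lay between the triple-mutant tumors, which were 4.55-fold apart. The mean was 26.9 ± 24.3 FPKM (SD, n = 2) against 30.5 ± 1.70 FPKM (SD, n = 2). The log2 difference of -0.52 was decided by single tumors, being 0.52 without 26044 and -1.56 without 26043. A RefSeq antisense gene overlaps Tfap2a, and whether the estimation used the strand of the reads is not given in the sources used here.

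Tfap2c (chromosome 2 from 172549593 to 172558621), which encodes AP-2γ, showed the reverse order within the triple-mutant pair, with 61.0 FPKM in 26043 (interval 58.9 to 63.8) and 167 FPKM in 26044 (164 to 173). The double-mutant tumors were at 87.7 FPKM in 26048 (84.5 to 91.3) and 50.5 FPKM in 26050 (48.5 to 52.9), so the genotypes overlapped. With means of 114 ± 75.1 FPKM (SD, n = 2) and 69.1 ± 26.3 FPKM (SD, n = 2), the log2 difference was 0.60, and it was -0.12 without 26044 and 1.32 without 26043. Tfap2c exceeded Tfap2a in each of the 4 tumors, 1.38-fold in 26043, 17.3-fold in 26044, 2.77-fold in 26048 and 1.72-fold in 26050. The AP-2 pair thus differed most from the other tumors in 26044, where Tfap2c was at its highest and Tfap2a at its lowest.

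Likeness between the 6 genes was measured as the Euclidean distance between their log2(FPKM + 1) values over the 4 tumors, each gene centred on its own mean. Trp63 and Perp were the closest pair, at a distance of 0.97, followed by Trp63 and Trim29 at 1.46 and Perp and Trim29 at 1.49. Trp73 was 1.85 from Perp and 2.45 from Trp63. The AP-2 genes stood apart from the others and from each other, with 2.77 between Tfap2a and Tfap2c, 3.74 between Trp63 and Tfap2c and 5.21 between Trp63 and Tfap2a. The genotype difference, on which the genes were picked, is a part of each distance, so nothing further is read from the grouping. The place of Trp73 also depends on the pseudocount. With 0.1 in place of 1, its log2 difference was 5.28, beside 5.19 for Trp63 and 3.88 for Perp.

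The p63 target list held 30 genes of basal epithelium described as targets of p63, with Perp left out, of which 28 were tested. In 16 of them (57.1%) both triple-mutant tumors were higher and in 3 (10.7%) both were lower, beside 21.3% and 22.9% of all tested genes. The median log2 difference of the list was 1.39, beside -0.02 over all tested genes, and 0 of the 28 passed the adjusted p. Among them, 5 of the higher genes and 1 of the lower genes were under 1 FPKM in both tumors of the other genotype, so the filter kept them only if they differed. Without such genes 11 of 22 were higher (50%) and 2 were lower (9.1%), beside 19.8% and 22.6% of all genes counted the same way, a count chosen after seeing the data. No test of the list was made. Krt5, a keratin of basal cells, was at 596 FPKM in 26043 and 114 FPKM in 26044 against 1.15 and 2.06 FPKM in 26048 and 26050. Krt14, its partner keratin, was at 611 and 42.5 FPKM against 2.08 and 6.99 FPKM, the genotypes again apart and tumor 26043 far above 26044. Dlx3, a homeodomain factor of the epidermis, had the order of Trp63, with 22.3 and 59.9 FPKM against 0.504 and 0.212 FPKM. Col17a1, a collagen of the hemidesmosome, was at 38.8 and 15.9 FPKM against 0.182 and 0.0986 FPKM.

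The list was not uniform. Among the genes that were lower in both triple-mutant tumors were those of the hemidesmosome linker Dst and the basement membrane protein Fras1, with log2 differences of -0.99 and -1.23, which were singled out after their values were seen. The desmosomal cadherins Dsc3 and Dsg3 did not reach the filter, since they were present in 1 tumor only, at 6.92 and 22.3 FPKM in 26043 and at or below 0.542 FPKM in the other 3. Without 26043 the median of the list was 0.54 and 7 genes were lower, and without 26044 the median was 2.16 and 5 were lower. Leaving out 26050 also gave 5 lower genes. The number of higher genes stayed at 16 to 23 whichever tumor was left out, which makes non-overlap easier to reach.

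**Figure D2:**
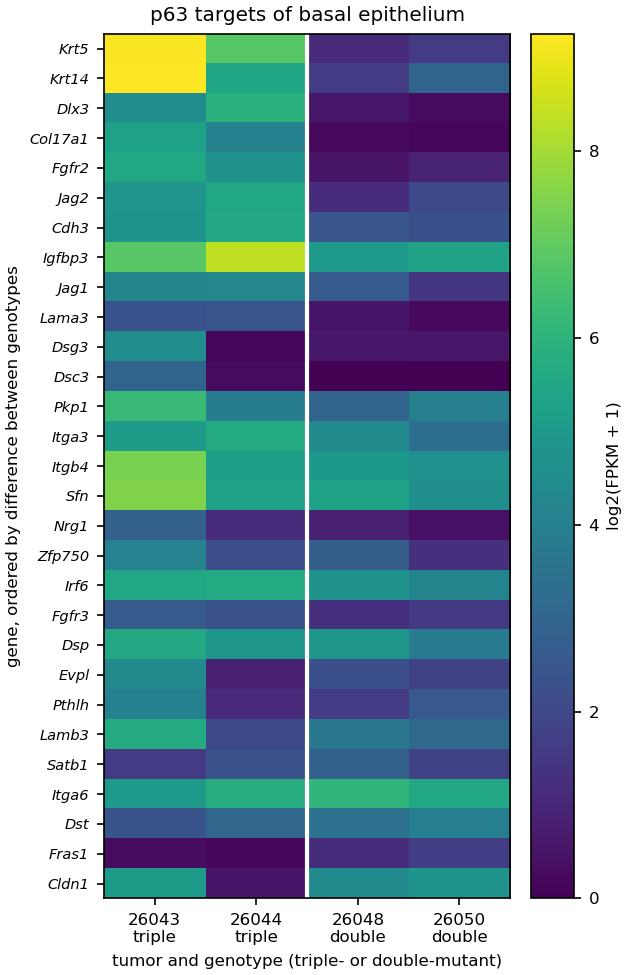
Heat map of log2(FPKM + 1) of the p63 target genes, 1 of them left out (rows, ordered by the difference of their mean between genotypes) in the 4 tumors (columns, a white line between the genotypes). The upper rows are bright in both triple-mutant tumors and dark in both double-mutant tumors, several rows are bright in 26043 alone, and Dst and Fras1 near the foot are brighter in the double-mutant tumors.

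Around the p53 relatives, 15 other genes of the p53 family and its regulators were tested, of which 1 was higher and 5 were lower in both triple-mutant tumors (6.7% and 33.3%, beside 21.3% and 22.9% of all tested genes), with a median log2 difference of -0.19. Trp53 itself, floxed in all 4 tumors and 1 of the 5 lower genes, was at 15.7 and 87.8 FPKM in 26043 and 26044 against 150 and 103 FPKM in 26048 and 26050. The study reports that p53 was effectively deleted in tumors of these mice. A value per gene does not separate transcripts of recombined alleles from those of intact alleles. Mdm4, which restrains p53, was at 4.53 and 3.23 FPKM against 12.3 and 6.81 FPKM. The other lower genes with the largest differences were Trp53bp2, a p53-binding ASPP protein, with a log2 difference of -0.78, and Rfwd2, the ubiquitin ligase COP1, with -0.51. Yap1, a cofactor that can bind p73, was the higher gene, at 78.1 and 53.7 FPKM against 47.6 and 40.7 FPKM. With 1 tumor left out, lower genes numbered 6 to 9 and higher genes 2 to 4, most lower genes without 26050 (9) and 26043 (8), and most higher genes without 26048 (4).

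Targets of cell death and arrest shared by p53, p63 and p73 stood near the background, with 3 of 15 higher (20%) and 3 lower (20%), beside 21.3% and 22.9% of all tested genes, and a median log2 difference of 0.16. Sesn1, a stress-induced sestrin, was at 12.0 FPKM in 26043 and 180 FPKM in 26044 against 7 and 3.86 FPKM in 26048 and 26050. Gadd45a, a growth arrest gene, was at 11.7 and 13.7 FPKM against 209 and 18.2 FPKM, with tumor 26048 far above the other 3. The other genes that did not overlap and differed most were Sesn2, with a log2 difference of 1.04, and the death receptor gene Tnfrsf10b, with -0.47. Cdkn1a, the arrest gene p21, overlapped, at 42.8 and 7.39 FPKM against 8.64 and 8.71 FPKM. Higher genes numbered 7 without 26048, 7 without 26044 and 5 without 26043, and lower genes 7 without 26043 and 6 without 26050, where the median was -0.10.

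In the desmosome, in which Perp acts, both triple-mutant tumors were higher for 3 of 10 tested genes (30.0%) and lower for 0, beside 21.3% and 22.9% of all tested genes, with a median log2 difference of 0.55. These were the plaque proteins Dsp, at 46.9 and 29.1 FPKM against 28.9 and 12.9 FPKM, Pkp3, with a log2 difference of 0.83, and Jup, with 0.73, all well under the 3.82 of Perp. The triple-mutant tumors were far apart in this group. Without 26044 all 10 genes were higher in 26043 than in both double-mutant tumors, and without 26043 the median was -0.67 and 6 genes were lower in 26044. The desmosomal cadherins Dsc2 and Dsg2, which overlapped, show the split in levels, at 10.7 and 26.3 FPKM in 26043 and 0.0475 and 2.03 FPKM in 26044. They were chosen after their values were seen.

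Among AP-2 relatives and cofactors, Tfap2b had the pattern of Trp73, with 6.45 and 1.35 FPKM in 26043 and 26044 against 0.0316 and 0.0636 FPKM in 26048 and 26050. Tfap2d was listed at 0 in all 4 tumors, and Tfap2e reached at most 0.138 FPKM. Tfap2a, Tfap2b and Tfap2c thus reached 1 FPKM in both triple-mutant tumors, and Tfap2a and Tfap2c in both double-mutant tumors. Of the 5 tested genes of this list apart from Tfap2a and Tfap2c, 3 were higher and 1 was lower in both triple-mutant tumors, beside 21.3% and 22.9% of all tested genes, and for Tfap2b the filter fixed the call. The median was 0.82, and it was 0.40 without 26044, 0.44 without 26050, 0.54 without 26048 and 0.99 without 26043. The AP-2 coactivator gene Cited4 was the lower gene, at 281 and 36.2 FPKM against 330 and 289 FPKM, and its relative Cited2 overlapped, at 68.8 and 127 FPKM against 29.9 and 92.3 FPKM. Cited2 and Cited4 were thus ordered like Tfap2c and Tfap2a within the triple-mutant pair. Kctd1 and Kctd15, whose proteins restrain AP-2α, had log2 differences of 0.83 and 0.49.

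Other transcription factors of stratified and basal epithelia had a median difference of 0.66, with 6 of 18 tested genes (33.3%) higher and 4 (22.2%) lower in both triple-mutant tumors, beside 21.3% and 22.9% of all tested genes. Without Bnc1, Dlx3 and Irx4, which passed the filter through the triple-mutant tumors alone, 3 of 15 were higher (20%) and 4 lower (26.7%), near the background of 19.8% and 22.6%. Id4, an inhibitor of basic helix-loop-helix factors found in basal mammary cells, was at 191 and 180 FPKM against 1.78 and 0.499 FPKM. Besides Dlx3, the homeodomain gene Irx4 was at 24.1 and 13.6 FPKM against 0.0979 and 0 FPKM, and Snai2, which encodes the basal factor Slug, had a log2 difference of 3.34. On the lower side were the ETS factors Elf5, at 43.6 and 4.84 FPKM against 66.0 and 103 FPKM, and Ehf, at 46.5 and 2.41 FPKM against 62.1 and 50.2 FPKM. Elf5 is also among the luminal markers below, so the list is mixed and its counts do not describe basal factors alone. Without 26043 the median was -1.35 and 9 genes were lower, and without 26044 it was 1.14 and 14 genes were higher.

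Of the TRIM relatives of Trim29, 0 of 15 were higher and 5 were lower (33.3%) in both triple-mutant tumors, beside 21.3% and 22.9% of all tested genes. Their median log2 difference was -0.27 and their highest 0.55, beside the 4.90 of Trim29. Trim47 was the lowest of them, at 71.3 and 15.4 FPKM against 80.6 and 90.0 FPKM. Trim27, Trim11 and Trim33 followed with log2 differences of -0.69, -0.66 and -0.58. Lower genes numbered 9 without 26043, and with 1 tumor left out higher genes numbered 1 to 5, most without 26044 (5) and 26048 (4).

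**Figure D3:**
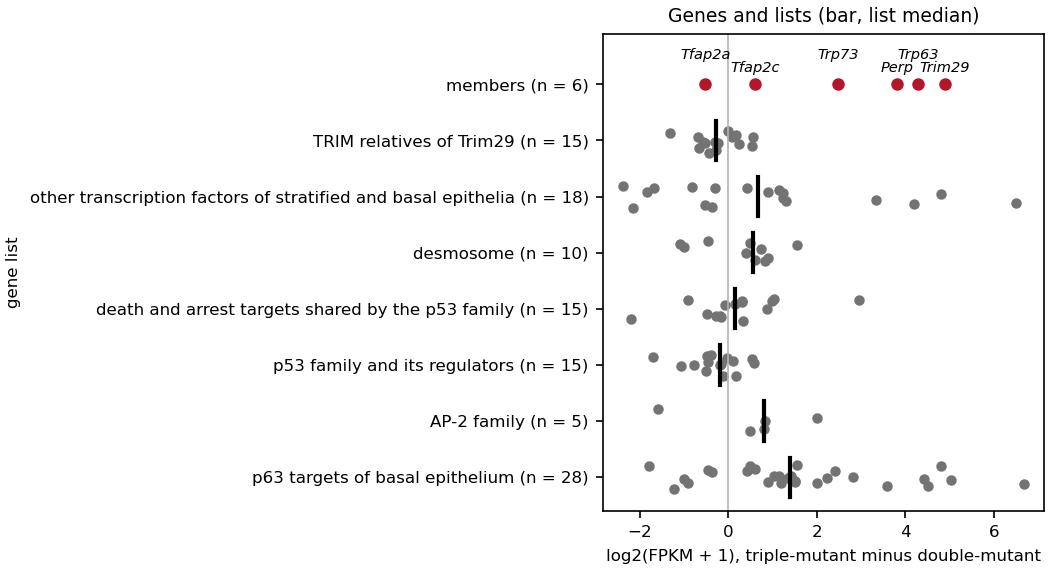
Difference between genotypes (horizontal axis, log2(FPKM + 1), triple-mutant minus double-mutant) of the 6 genes (red, labelled) and of each tested gene of the 7 lists (grey points, moved apart vertically so they can be seen), with the list median as a black bar. The median is farthest to the right for p63 targets, at 1.39, and lies left of 0 for the p53 regulators, at -0.19, and for the TRIM genes, at -0.27.

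Markers of cell types moved with the genotypes and with single tumors. The summed FPKM of 7 basal keratins was 1878 in 26043 and 326 in 26044 against 11.4 in 26048 and 15.2 in 26050, and the 5 that were tested were higher in both triple-mutant tumors, beside 21.3% of all tested genes. For Krt6a the filter fixed that call, and it dropped Krt16 and Krt6b, which reached 1 FPKM in 26043 alone. The 6 myoepithelial markers summed to 109 and 1271 FPKM against 111 and 72.4 FPKM, most in 26044, where the contractile genes Acta2 and Cnn1 were at 898 and 36.2 FPKM. Tumor 26043 thus had the high basal keratins together with the high Trp73, Trim29 and Tfap2a, and tumor 26044 the high myoepithelial markers together with the high Trp63 and Tfap2c. The 7 luminal markers summed to 2976 FPKM in 26043, 459 FPKM in 26044, 2451 FPKM in 26048 and 2074 FPKM in 26050, with 26044 low like its Tfap2a. Of these 7, 4 were lower in both triple-mutant tumors (57.1%) and 1 was higher (14.3%), beside 22.9% and 21.3% of all tested genes. The higher gene, Krt19, was at 1154 and 194 FPKM against 139 and 56.7 FPKM and weighs heavily in the sum of 26043. Hormone-sensing luminal markers summed to 793, 61.8, 112 and 101 FPKM in the same order. Dividing the 6 genes by the sum of Krt8, Krt18, Krt19, Krt7 and Epcam, which is lowest in 26044, moves every difference up by the same amount and so ranks them no differently. It gave 5.20 for Trp63, 3.38 for Trp73, 4.73 for Perp, 5.81 for Trim29 and 1.5 for Tfap2c, and turned the sign of Tfap2a from -0.52 to 0.39. The part of these cell types in the levels of the 6 genes was not tested.

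Skin also expresses p63 and its partners, and markers of its outer layers and hair follicles were low. Of 12 cornified skin and hair follicle markers, 11 were found, summing to 12.2 and 6.43 FPKM in the triple-mutant and 5.99 and 7.15 FPKM in the double-mutant tumors, with 3 or 4 of them at 0 in each tumor. Krt2 was at 0 in all 4, Krt1 reached at most 0.711 FPKM, Krt10 at most 3.55 FPKM and Lor at most 3.63 FPKM. The highest value was 4.06 FPKM, of Krt71 in 26050. These markers do not cover the basal layer of skin. Of cells outside the epithelium, 7 fibroblast markers summed to 205 and 123 against 899 and 433 FPKM, with 4 of 7 lower in both triple-mutant tumors (22.9% of all tested genes were), and 6 myeloid markers to 141 and 52.0 against 186 and 115 FPKM, with 4 of 6 lower. Lymphocyte markers stayed at or below 3.59 FPKM and endothelial markers at or below 69.6 FPKM in sum. Adipocyte markers were high in 26048, at 1390 FPKM against 7.58, 261 and 31.5 FPKM in 26043, 26044 and 26050, and skeletal muscle markers in 26050, at 45.4 FPKM against at most 8.60 FPKM elsewhere. The part of these cells in the results was not tested either.

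**Figure D4:**
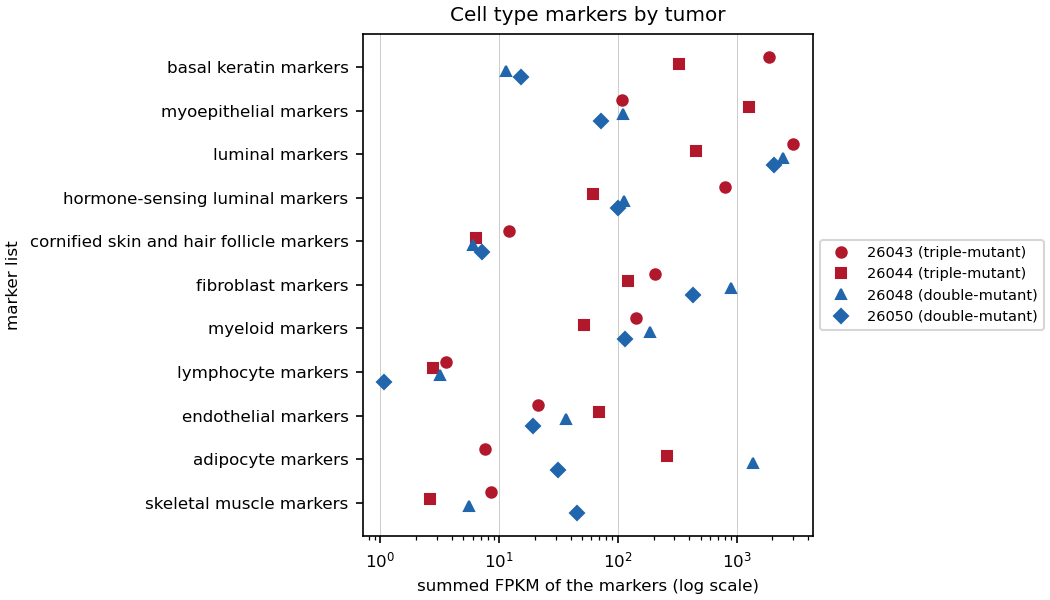
Summed FPKM (horizontal axis, log scale) of 11 lists of cell type markers in each tumor, triple-mutant in red and double-mutant in blue. Basal keratins separate the genotypes, from at most 15.2 to at least 326, while the myoepithelial, luminal, hormone-sensing and adipocyte sums set single tumors apart.

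The 10 tested genes on either side of each gene on its chromosome were set beside the gene itself. Around Trp63 the median log2 difference of the 20 neighbours was -0.15, 4 were higher and 3 lower without overlap, and none differed as much as Trp63. Around Trim29 the median was 0.14, with 5 higher and 3 lower. Around Trp73 and Perp 17 of 20 neighbours were above 0, with medians of 0.37 and 0.73, and 10 and 6 neighbours were higher without overlap against 0 lower. Over all tested genes the shares were 21.3% and 22.9%. Near Trp73, Plch2, a phospholipase C gene, had a larger difference than Trp73 itself, 2.73, and Gpr153 on the other side had 1.23. Near Perp, Heca was at 15.5 and 38.3 FPKM against 5.19 and 7.16 FPKM, a log2 difference of 1.84, and on the other side Slc35d3, at -0.89, had the largest size of difference. The sides of Perp also differed by tumor, as seen after the values were known. From Vta1 to Hebp2, on the side of Heca, each neighbour was highest in 26044. Reps1 there was at 30.4 and 65.7 FPKM against 12.7 and 31.0 FPKM. From Ifngr1 outward on the other side, each was lower in 26044 than in 26043, such as Mtap7, at 7.93 and 24.8 FPKM. A median over both sides mixes these orders.

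Around Tfap2a the median was -0.11 and 7 neighbours had a larger size of difference than Tfap2a, and around Tfap2c the median was 0.30. Next to Tfap2c lay Bmp7, a ligand of the bone morphogenetic protein family, at 87.4 and 250 FPKM against 1.57 and 6.86 FPKM, a log2 difference of 5.05 beside the 0.60 of Tfap2c. Bmp7 was higher in 26044 than in 26043, as Tfap2c was, but unlike Tfap2c it did not overlap between genotypes, and Tshz2 on the other side had 1.70. With the median level of the 20 neighbours subtracted in each tumor, the difference was 4.75 for Trp63, 2.0 for Trp73, 2.84 for Perp, 4.41 for Trim29, -0.21 for Tfap2a and 0.11 for Tfap2c.

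**Figure D5:**
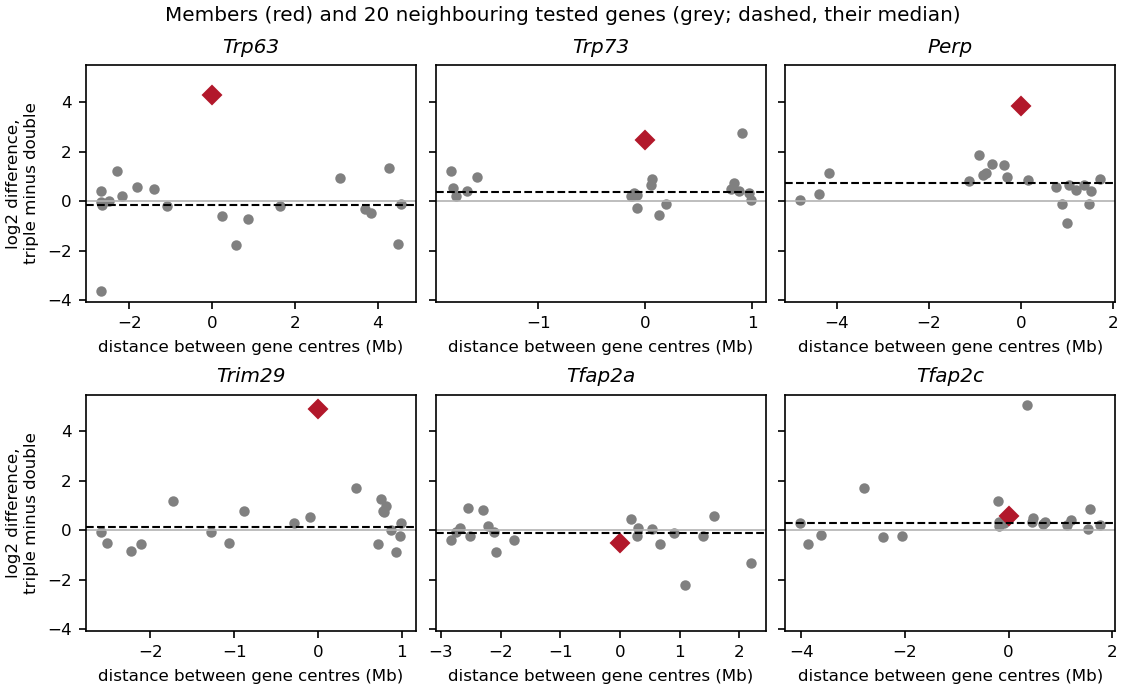
Log2 difference between genotypes (vertical axis) of each of the 6 genes (red) and of its 20 neighbouring tested genes (grey) against the distance between gene centres in Mb, with the neighbours' median as a dashed line. Trp63, Perp and Trim29 stand above every neighbour, Plch2 stands above Trp73, and Bmp7 at 5.05 stands far above Tfap2c.

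By the same distance, the named genes most like Trp63 over the 4 tumors were Ccnd2 (0.49), Wnt6 (0.53), Pdgfa (0.60), Chi3l1 (0.64), Dlx3 (0.69) and Mest (0.69). The cyclin gene Ccnd2 was at 37.7 and 84.6 FPKM against 3.71 and 2.03 FPKM, and the Wnt ligand gene Wnt6 at 22.7 and 43.2 FPKM against 0.235 and 0.298 FPKM. Each of the 6 had its highest value in 26044, like Trp63. By Pearson correlation instead, 0 of the 6 most alike genes were shared, since genes of a smaller difference then came first, such as the oxytocin receptor gene Oxtr, at 12.0 and 19.6 FPKM against 1.25 and 0.703 FPKM. Only 4 tumors define these likenesses, and for Trp63 the genotype difference is a part of each.

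The nearest genes of the others did not all keep the order of the tumors. Fam25c, near Perp, was at 22.1 FPKM in 26043 and 16.7 FPKM in 26044, the reverse of Perp. Nearest Trp73 were R3hdml (0.20) and the EGF receptor ligand Areg (0.20), both highest in 26043. Nearest Perp were Cntfr (0.22), Fam25c (0.47) and the Notch ligand Jag2 (0.52), and nearest Trim29 were Col17a1 (0.40), the growth factor receptor gene Fgfr2 (0.67) and Irx4 (0.75). Col17a1, Fgfr2 and Jag2 are also in the p63 target list, and Fgfr2 was at 44.5 and 25.1 FPKM against 0.40 and 0.864 FPKM. Tfap2a, which did not separate the genotypes, was matched closely by Rhbdf2 (0.013), at 29.9 and 6.32 FPKM against 21.6 and 19.8 FPKM, then by Trim2 (0.080) and by Capg (0.11). Tfap2c was matched by Pkdcc (0.092), Dennd2a (0.11) and Rasip1 (0.11), which were highest in 26044.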

How the data were processed

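The authors prepared polyA RNA from 4 tumors with a strand-marking (dUTP) kit, aligned reads with TopHat 2.0.10 and Bowtie 0.12.9 on mm10 and estimated FPKM per gene with Cufflinks 2.1.1, per the submitters' processing notes and the methods. The deposited tables hold FPKM with interval bounds and a status. Read counts were not used here, so no count test was run.

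The 4 tables were joined on symbol and position, and starts were written from 1. Genes reaching 1 FPKM in 2 or more tumors were kept, log2(FPKM + 1) was fitted with limma 3.58.1 (R 4.3.3, eBayes with trend), and p-values were adjusted by Benjamini-Hochberg at 0.05. The fit was also run on simulated data with the same spread for every gene, and nothing is read from that run here. Depth is unknown. The pseudocount of 1 understates differences of low genes. The genes, lists and tests were chosen with earlier results of these data known.

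Named are the 6 genes, p53- and AP-2-family genes, up to 4 genes per list with the largest difference among those that do not overlap, the nearest 6 genes to Trp63 and 3 to each other gene (predicted and small RNA genes skipped), and neighbours with the largest difference on either side. Genes that this rule or a small count would name but the text does not are not reported here, and counts and medians include them. Alternatives were a filter of 5 FPKM or none, a pseudocount of 0.1, TPM, quantile normalization, limma without trend, interval midpoints, each tumor left out, neighbours subtracted, epithelial markers divided out and Pearson correlation. Tables and plots were made with matplotlib 3.10.9, numpy 2.4.6 and pandas 2.3.3 in Python 3.11.15.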

Additional observations from a re-analysis of the deposited data

How the results depend on the processing

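The count of 0 genes past the adjusted p was 5 in limma without trend, 1 with interval midpoints and 6 after quantile normalization. It was 0 with each tumor left out, and the other alternatives gave counts of 0. The number of the 6 genes higher in both triple-mutant tumors was 4, from 3 with a filter of 5 FPKM, which Trp73 did not pass, to 5 without 26048, 26043 or 26044 (4 to 5 with each tumor left out). Across all settings the log2 difference ranged from 3.93 to 5.20 for Trp63, 1.70 to 5.28 for Trp73, 2.84 to 4.73 for Perp and 4.34 to 6.39 for Trim29, and it changed sign for Tfap2a (-1.56 to 0.52) and Tfap2c (-0.12 to 1.5). Of 71 such values, 10 moved by more than the spread between tumors, with a pseudocount of 0.1, neighbours subtracted or epithelial markers divided out. Leaving out 1 tumor cannot shift the difference of a gene by more than this spread. Such values among the 71 could therefore not count as moved, changes of sign included. Of 70 list medians 13 moved. Counts per list with each tumor left out were chosen after seeing the data, and 23 of 56 moved by over 1.5 times. No paired analysis was possible because the tumor numbers of the genotypes share none, and although the study describes the genotypes as littermates, which tumors pair is not given. With 2 tumors per genotype, the spread within a genotype rests on 1 difference, and low values such as those of Trp73 in the double-mutant tumors are limited by an unknown depth.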

Other observations

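Receptors and factors of hormone-sensing luminal cells were also read in these tumors, since AP-2γ and Foxa1 are known to act with the estrogen receptor. Of the 6 genes of that list, 3 were higher in both triple-mutant tumors and 0 were lower, beside 21.3% and 22.9% of all tested genes. Esr1 and Pgr were under 1 FPKM in both double-mutant tumors, so the filter fixed their calls, and without them 1 of 4 was higher (25.0%), beside 19.8% of all genes. Esr1, the estrogen receptor gene, was at 3.66 and 1.39 FPKM in 26043 and 26044 against 0.325 and 0.354 FPKM in 26048 and 26050. Pgr, the progesterone receptor gene, was at 4.45 and 1.06 FPKM against 0.122 and 0.0217 FPKM, and Foxa1 at 40.9 and 8.44 FPKM against 3.62 and 0.341 FPKM. All 3 were higher in 26043 than in 26044, the order of Tfap2a and not of Tfap2c. They are named after their values were seen and have no test. In the study, estrogen receptor α and progesterone receptor protein were not detectable in tumors of either genotype. The values here are of RNA.

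The basal keratins were unequal between the triple-mutant tumors to different degrees. Krt17 was at 435 FPKM in 26043 and 155 FPKM in 26044, against 3.24 and 4.77 FPKM in the double-mutant tumors. Krt6a was at 109 and 1.88 FPKM against 0.0989 and 0.312 FPKM, and Krt16, a keratin of activated keratinocytes, was at 47.5 FPKM in 26043 and at or below 0.471 FPKM in the other 3 tumors. These keratins were named after their values were seen.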
